A study of Mus musculus with 5 samples.

Results

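The genes described here are 10 immediate early genes, the AP-1 subunits Jun, Junb, Jund, Fos and Fosb and their partners in the same response Egr1, Atf3, Ier2, Klf4 and Dusp1. They were taken by symbol from the deposited single-cell count table, in which all 10 were found among 18767 genes. The study sequenced immune cells of the thyroid from NOD.WT mice, a strain prone to autoimmunity, as 10x Genomics 5′ libraries of live single cells sorted for CD45. Mice of both sexes, 4 to 6 weeks old at the start, received intraperitoneal antibodies 2 times a week for 4 weeks. The immune checkpoint inhibition (ICI) group, 16 mice, was given clone RPM1-14 against PD-1 together with clone 9D9 against CTLA-4 at 10 mg/kg per dose, and the control group, 10 mice, was given isotype antibodies (clones 2A3 and MPC11). After perfusion the thyroids were digested with collagenase, a step that all groups share. Mice were pooled into 4 ICI libraries, called ICI 1 to ICI 4 here, and 1 isotype library, and the number of mice behind each library is not given in the labels.

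The libraries held 1163 to 5018 cells and 3858251 to 32296759 unique molecular identifiers (UMIs, counted RNA molecules), with a median of 1753 to 4321 UMIs per cell. ICI 4 was the largest on all 3 measures. At least 1 UMI of Ptprc, the gene for CD45, was found in 100% of cells of ICI 4 and of the isotype library, against 92.3%, 84.2% and 82.1% of cells of ICI 1, ICI 2 and ICI 3. ICI 2 and ICI 3 shared 140 cell barcodes, and every other pair of libraries shared at most 12. With 1 isotype library, the treatment and that library cannot be told apart, and p-values measure only the spread between ICI libraries, which may be technical.

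Immediate early genes are switched on within minutes of a stimulus, before any new protein is made, by factors such as the serum response factor and CREB that MAP kinases activate. In T cells and natural killer cells the stimulus can be antigen or cytokine, and in macrophages a danger signal, but the digestion of tissue into single cells is a stimulus as well. Jun and Fos proteins pair to form AP-1, which binds DNA and, with NFAT, drives cytokine genes. Dusp1 encodes a phosphatase that ends MAP kinase signals.

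The genes lie on 7 chromosomes (GRCm38, GENCODE vM21), with Jun at chr4:95049034-95052222 and Klf4 at chr4:55527143-55532466, both on the minus strand, and Junb at chr8:84974484-84978718 on the minus and Jund at chr8:70698949-70700616 on the plus strand. Promoter windows of 250 bases before the RefSeq start site (GRCm38.p6) were in the table used here for 8 of the 10 genes. Of the 6 that hold the CREB half-site TGACG or its reverse complement CGTCA, 4 are printed below as examples, from both Fos genes, Atf3 and the phosphatase gene. Those letters are in capitals, which also mark the full site TGACGTCA in Dusp1.
Fos, chr12:85473640-85473889, plus strand: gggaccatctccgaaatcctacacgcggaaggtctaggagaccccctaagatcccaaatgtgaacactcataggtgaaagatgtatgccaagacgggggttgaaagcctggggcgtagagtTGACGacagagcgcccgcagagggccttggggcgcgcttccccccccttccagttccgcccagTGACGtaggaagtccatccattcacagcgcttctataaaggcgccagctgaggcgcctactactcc
Fosb, chr7:19310046-19310295, minus strand: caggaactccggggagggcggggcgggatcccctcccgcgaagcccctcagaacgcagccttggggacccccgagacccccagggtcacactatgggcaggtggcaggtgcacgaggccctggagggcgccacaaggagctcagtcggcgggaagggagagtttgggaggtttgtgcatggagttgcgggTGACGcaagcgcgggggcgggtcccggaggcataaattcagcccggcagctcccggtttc
Atf3, chr1:191183334-191183583, minus strand: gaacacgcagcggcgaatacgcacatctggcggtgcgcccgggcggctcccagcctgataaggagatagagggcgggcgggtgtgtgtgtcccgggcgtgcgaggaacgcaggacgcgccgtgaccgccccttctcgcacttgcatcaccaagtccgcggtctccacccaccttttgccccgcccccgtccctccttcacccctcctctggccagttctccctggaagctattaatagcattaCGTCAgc
Dusp1, chr17:26508473-26508722, minus strand: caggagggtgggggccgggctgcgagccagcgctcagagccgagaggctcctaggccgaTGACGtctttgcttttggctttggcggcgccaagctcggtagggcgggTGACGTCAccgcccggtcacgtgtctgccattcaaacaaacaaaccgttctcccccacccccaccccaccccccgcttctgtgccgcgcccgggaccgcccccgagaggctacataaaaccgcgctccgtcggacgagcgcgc

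TGACG on either strand was present in 6 of the 8 windows (Atf3, Dusp1, Fos, Fosb, Junb and Klf4) and in 17.8% of 32851 windows of the same length over all genes. The full CREB site TGACGTCA was in the Dusp1 window and in 1.55% of all windows. The TATA box TATAAA, searched on the gene's own strand, was in the Fos window and in 7.59% of all. The AP-1 site TGANTCA was in 0 of the 8 and 6.75% of all windows, and the CArG box bound by serum response factor in 0 of the 8 and 1.47% of all, both searched on either strand. TGACG lies within TGACGTCA, so these counts overlap. A match is a description of the letters, and its absence says nothing of sites outside the window.

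Over all cells, each of the 10 genes had a lower level in every ICI library than in the isotype library, although none passed the test. Levels are given as CPM, the UMIs of a gene per 1000000 UMIs of the library or, within a cluster, of the library's cells there. In bulk sums of this kind, fewer cells of a type and less RNA per cell cannot be told apart. All 10 genes lay below isotype in all 4 ICI libraries, where 19.1% of the 12659 genes tested did so and 27.3% lay above it. The median log2 fold change of ICI minus isotype was -1.12 over the 10 genes and 0.02 over all genes. By edgeR with Benjamini-Hochberg adjustment, 0 of the 10 genes and 0 of all genes (0%) passed an adjusted p of 0.05. Jun and Klf4 were among 516 genes with an unadjusted p below 0.05.

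Of the Jun family, Jun itself, the strongest activator of the 3, had 112, 196, 190 and 155 CPM in ICI 1 to ICI 4 and 316 in the isotype library. Its mean over ICI libraries was 163 ± 38.5 CPM (SD, n = 4) and its log2 fold change -1.05 (SE 0.37), with an edgeR adjusted p of 0.816. Junb, which pairs with Fos proteins in activated T cells, had 358, 1014, 921 and 1011 CPM in the ICI libraries and 1318 in isotype. ICI 1 stood well under the other 3, and ICI 2 to ICI 4 came close to the control, so that the log2 fold change of -0.76 had an SE of 0.60. Jund, the subunit that resting cells already express, had 275, 353 and 319 CPM in ICI 1 to ICI 3, 726 in ICI 4 and 1057 in isotype. Its log2 fold change was -1.41 (SE 0.59; edgeR adjusted p = 0.816). With ICI 4 left out, the fold change of Jund was -1.87 and its edgeR adjusted p 0.0422, so this 1 library decided the call. That fit called 161 of 12503 genes lower in ICI (1.29%), so the change was not particular to Jund.

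Of the Fos family, which cannot pair with itself and needs a Jun partner, Fos had 96.8, 377, 399 and 139 CPM in the ICI libraries and 482 in isotype. Fosb had 9.03, 49.5, 45.9 and 28.8 CPM against 114 in isotype, where every ICI value was under the isotype value. ICI 2 and ICI 3 were high and ICI 1 and ICI 4 low for both genes, a split that differs from that of Jund. The log2 fold changes were -1.03 (SE 0.80) for Fos and -1.86 (SE 0.77) for Fosb.

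Of the other transcription factors, Egr1, a zinc-finger protein induced by MAP kinase signals, had 71.1, 194, 170 and 88.0 CPM in the ICI libraries and 241 in isotype. Atf3, a stress-induced factor of the CREB family, had 30.9, 224, 204 and 15.4 CPM against 252. Its ICI libraries spanned over a wide range, with ICI 2 and ICI 3 near the control and ICI 1 and ICI 4 far under it, and its log2 fold change was -1.20 with an SE of 1.36. Klf4, a zinc-finger factor of myeloid and epithelial cells, had 13.3, 18.4, 20.1 and 13.2 CPM in the ICI libraries and 76.9 in isotype, which was 3.83 times the highest ICI library. The 4 ICI values were close together, and the log2 fold change of -2.35 (SE 0.30) had the lowest p of the 10 genes (unadjusted p = 0.000382), with an edgeR adjusted p of 0.467. DESeq2 called Klf4 with an adjusted p of 3.70e-04, as 1 of 31 genes called (lower in ICI: 0.110% of genes), and edgeR called it without ICI 4 with an adjusted p of 0.0422, where 1.29% of genes were called lower.

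Ier2, an early gene that encodes a nuclear protein, had 128, 237, 225 and 297 CPM in the ICI libraries and 402 in isotype, and its log2 fold change was -0.94 (SE 0.49). Dusp1, the inhibitor among the 10, had 110, 278, 270 and 234 CPM against 523, with a log2 fold change of -1.32 (SE 0.53). So the activators and the phosphatase that limits them stood on the same side of isotype. The edgeR adjusted p-values of the 9 genes other than Klf4 were between 0.816 and 0.823.

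**Figure D1:**
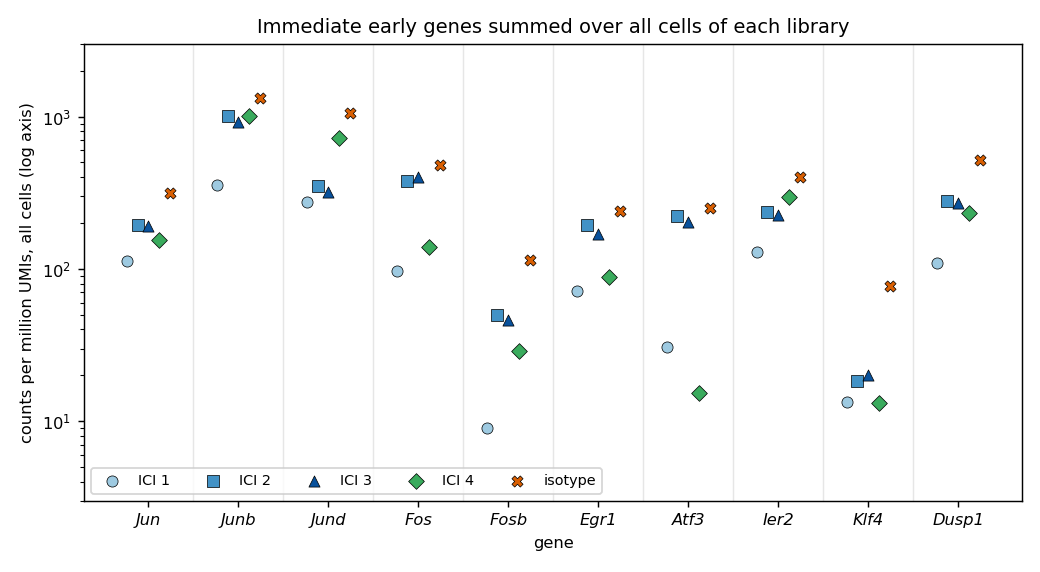
Level of each gene summed over all cells of a library, in CPM on a log axis, with 1 point per library (4 ICI libraries and 1 isotype library, no error bars). The isotype point is the highest for each of the 10 genes, and Klf4 shows the clearest gap, 76.9 CPM against at most 20.1 CPM in the ICI libraries.

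Cells with RNA of several types moved with this difference. Cells holding at least 2 UMIs of T cell receptor complex genes and at least 2 of myeloid genes made up 1.90%, 0.738%, 1.46% and 1.59% of ICI 1 to ICI 4 and 9.54% of the isotype library. Without them, all 4 ICI libraries were below isotype for 7 of the 10 genes, the median log2 fold change was -0.79, and that of Atf3 was -0.21. Cells holding at least 10 UMIs of stromal genes (thyroid epithelium, endothelium and fibroblast lists, 19 genes) numbered 3, 1, 3 and 11 in the ICI libraries and 29 in isotype. Those 29 held 9.8% of the isotype UMIs of the 10 genes and 4.38% of the isotype UMIs of all genes. By gene their share ran from 5.50% for Junb to 26.9% for Egr1. The 7 fibroblast genes summed to 0 CPM in ICI 1 to ICI 3, 52.8 CPM in ICI 4 and 299 CPM in isotype. With the stromal cells removed, 9 of the 10 genes stayed below isotype in every ICI library and the median was -0.995. With cells lacking a Ptprc UMI removed, all 10 stayed below it and the median was -1.26, and with the shared barcodes removed the values were 10 and -1.17. The share of all genes below isotype was not counted after any of these removals, so these counts have no background beside them.

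For related genes the counts are given beside those of all genes tested, of which 48.8% had a negative fold change and 19.1% were below isotype in each ICI library. Of 41 other immediate early genes, 35 had a negative fold change, with a median of -0.80, and 25 were below isotype in every ICI library, a larger share than over all genes. Zfp36, which destabilises cytokine mRNA, had 375 ± 186 CPM in ICI (SD, n = 4) and 846 in isotype. Nfkbia, the inhibitor of NF-kB, had 378 ± 106 CPM against 830. Btg2, an antiproliferative early gene, went the other way with 466 ± 192 CPM in ICI and 387 in isotype. The other 2 with the highest levels were Btg1 (728 ± 131 CPM against 822) and Zfp36l1 (419 ± 26.1 CPM against 566).

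Of the 20 measured upstream factors, among them the kinases and the serum response and CREB factors, 13 had a negative fold change, with a median of -0.11, and for 2 of them every ICI library was below isotype, a smaller share than over all genes. Map2k2, a kinase of the MAP kinase cascade, had 144 ± 7.65 CPM in ICI (SD, n = 4) and 154 in isotype. Of 12 heat shock chaperones, another response to stress and tissue handling, 11 had a negative fold change, with a median of -0.46, and for 3 of them every ICI library was below isotype, near the share over all genes. Hspa8, the constitutive chaperone, had 1972 ± 112 CPM against 1886, while Hsp90aa1, the inducible form of HSP90, had 491 ± 296 CPM against 732. By edgeR, 0 genes of these 3 lists were called in any of the 13 comparisons fitted. Over all cells 5 of the other immediate early genes and 0 of the other lists had an unadjusted edgeR p below 0.05, as did 516 of the 12659 genes tested.

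The share of cells with a UMI gave the same order of groups. To compare cells of equal depth, each was thinned to 1000 UMIs, which left out 596 ICI cells and 21 isotype cells. Junb was then found in 22.3%, 32.8%, 29.2% and 54.7% of cells of ICI 1 to ICI 4 and in 55.8% of isotype cells (95% Clopper-Pearson interval 53.1% to 58.5%). ICI 4 and isotype thus had nearly the same share of Junb cells, and ICI 1 to ICI 3 a clearly lower one. Unthinned, the Junb shares were 36.2%, 48.6%, 51.9%, 83.9% and 79.1% in the same order. Jund was found in 21.1%, 25.7% and 26.0% of cells of ICI 1 to ICI 3, 48.5% of ICI 4 and 58.1% of isotype.

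Klf4 was found in 0.902%, 1.25%, 1.39% and 1.34% of thinned ICI cells and 4.28% of isotype cells. Dusp1 was found in 5%, 11.5%, 11.1% and 20.1% against 27.9%. For Fos the shares were 2.95%, 8.05%, 6.67% and 10.8% against 19.4%. Each of the 10 shares had a lower mean in ICI, and by exact two-sided permutation over libraries 9 of them had p = 0.2, the smallest that 4 against 1 can give (0.222 adjusted over the 10), with Jun at p = 0.4. Intervals cover counting error only, and RNA free in the droplets was not measured, since no cluster is known to lack these genes.

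Counted per cell at 1000 UMIs, the mean number of the 10 genes detected was 0.769, 1.17, 1.07 and 1.82 in ICI 1 to ICI 4 and 2.32 in isotype. Cells with at least 5 of the 10 genes made up 0.820%, 4.20%, 2.99% and 3.47% of the ICI libraries and 11.6% of isotype. Cells with 0 of the 10 made up 48.9%, 41.0% and 43.0% of ICI 1 to ICI 3, but 15.2% of ICI 4 and 11.8% of isotype. By this last measure ICI 4 lay next to isotype, and by the share of cells with many of the genes it lay among the ICI libraries.

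The authors grouped the cells into 17 clusters, and the 10 genes were unevenly spread over them. Clusters were called by a cell type only where marker genes led them, as in cluster 1 (effector T-like, led by Gzmk, Ccl5 and Ifng), cluster 4 (regulatory T-like, Foxp3 and Ctla4) and cluster 6 (gamma-delta T-like, Cd163l1, Blk and Sox13). Likewise, cluster 7 was macrophage-like (C1qa, Lyz2, Csf1r), cluster 8 natural killer-like (Ncr1, Klra4, Klre1), cluster 10 type 2 innate lymphoid-like (Il1rl1, Arg1, Il13), cluster 5 cycling-like (Rrm2, Top2a) and cluster 16 dendritic-like (Xcr1). The clusters were made from the same cells' genes, so differences between them are described without a test.

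Junb was highest in innate lymphoid-like cluster 10 in ICI 4, in isotype and by the ICI mean. In that cluster it had 1015, 2377, 1818 and 4288 CPM in ICI 1 to ICI 4 and 3593 in isotype, with an ICI mean of 2374 ± 1393 CPM (SD, n = 4). The next by that mean were macrophage-like cluster 7 (1304 ± 529 CPM), regulatory T-like cluster 4 (1231 ± 1001 CPM) and cluster 6 (1173 ± 784 CPM), which do not differ beyond their spread. The lowest Junb level was in cycling-like cluster 5, with 245 ± 123 CPM (SD, n = 3) and 279 in isotype. Jund in cluster 10 had 217, 391, 248 and 1874 CPM in the ICI libraries and 1991 in isotype, so that ICI 4 was far above the other ICI libraries there. Cluster 10 was thus the highest for Jund in ICI 4 and in isotype, but not by the ICI mean (683 ± 798 CPM), which ranked it sixth after clusters 4 (705 ± 303 CPM) and 8 (698 ± 626 CPM) among others, and these 3 do not differ beyond their spread. Fosb too was highest in cluster 10, with 75.9, 255, 281 and 771 CPM against 408 in isotype. Fosb in clusters 0 and 3, 2 large clusters, was at 1.58 and 1.13 CPM on average over the ICI libraries.

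Atf3, Klf4, Dusp1, Fos and Egr1 were highest in macrophage-like cluster 7 by the ICI mean. There Atf3 had 247, 1203, 1240 and 389 CPM in ICI 1 to ICI 4 and 935 in isotype, and the next cluster with 4 ICI libraries, cluster 6, had a mean of 38.1 ± 74.0 CPM. Cluster 7 held 95.6%, 99.3% and 97.9% of all Atf3 UMIs in ICI 1 to ICI 3, 39.4% in ICI 4 and 72.4% in isotype. The same cluster made up 6.83%, 14.8%, 13.9% and 0.897% of ICI cells and 9.54% of isotype cells, so the low Atf3 level of ICI 4 over all cells moved with its few macrophage-like cells. Fos in cluster 7 had 515, 1593, 2057 and 260 CPM in the ICI libraries and 1122 in isotype, and Egr1 had 117, 817, 753 and 149 CPM against 572. For both genes ICI 2 and ICI 3 exceeded isotype, and ICI 1 and ICI 4 did not reach it.

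Jun was highest by the ICI mean in cluster 9, which it helped to define together with the heat shock genes Hspa1a and Hspa1b. Only ICI 4 (1117 CPM) and isotype (889 CPM) had at least 20 cells in that cluster. Ier2 was spread evenly, with 386 ± 205 CPM in cluster 10, its highest, and 138 ± 57.2 CPM (SD, n = 3) in cluster 5. Egr1, highest in cluster 7 by the ICI mean, was highest in cluster 6 within ICI 4 (839 CPM) and within isotype (1207 CPM). The stromal cells described further on carried these 2 values.

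**Figure D2:**
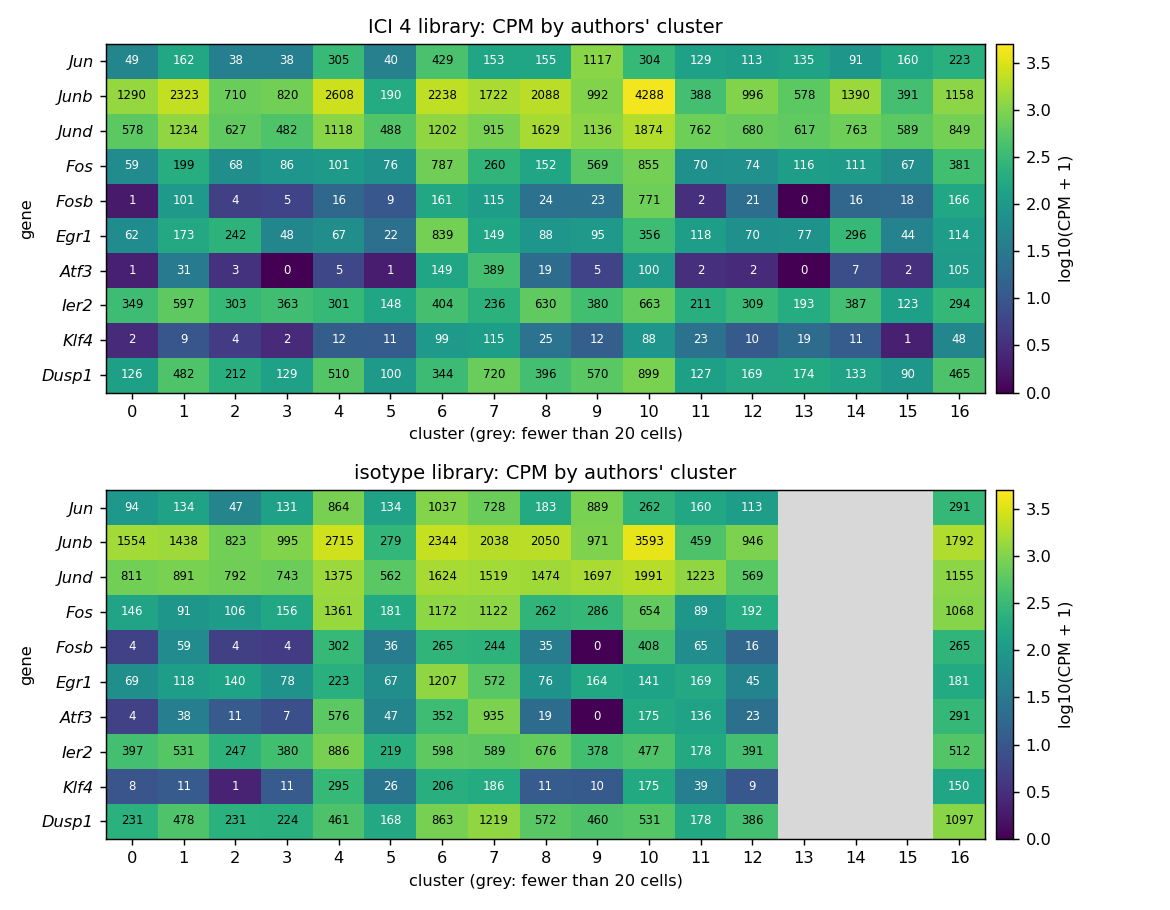
Level of each gene in every cluster with at least 20 cells, in CPM, for ICI 4 (top) and isotype (bottom), coloured by log10 of CPM plus 1, with the CPM written in each field. Junb and Jund are high over many clusters and peak in cluster 10, while Atf3 and Klf4 stay near 0 in clusters 0 and 3 of ICI 4.

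To compare the groups apart from their mix of clusters, the fit was repeated within the 12 clusters with enough cells. Of 107 gene and cluster pairs tested, 102 had a negative fold change. Over all genes tested, the share with a negative fold change ran from 43.6% in cluster 1 to 54.1% in cluster 11. Of the 107 pairs, 3 were called by edgeR (0.0470% of all 82933 gene and cluster pairs were called lower). In 70 of the 107 every ICI library lay below isotype (19.8% of all gene and cluster pairs), and 74 of all 120 did so when the genes under the count filter are counted as well. By cluster, the count reached all 10 in gamma-delta T-like cluster 6, where 19.3% of all genes lay below isotype, 9 in regulatory T-like cluster 4 (18.1%) and 8 in cycling-like cluster 5 (16.7%). It was 7 of 7 tested in cluster 3 (19.3%), 6 of 7 in cluster 0 (20.8%), 5 of 8 in natural killer-like cluster 8 (12.3%) and 6 of 10 in macrophage-like cluster 7 (23.6%). Fewest were 2 of 10 in effector T-like cluster 1 (19.0%), 3 of 10 in innate lymphoid-like cluster 10 (7.01%) and 3 of 7 in cluster 2 (14.9%). Clusters 11 and 12, with 2 ICI libraries each, had 7 of 10 (28.4%) and 4 of 8 (34.4%). In cluster 1 ICI 4 was above isotype for most of the genes, among them Junb with 457, 878, 904 and 2323 CPM in the ICI libraries and 1438 in isotype. Each ICI library was also given the cluster mix of isotype, over 12, 9, 10 and 14 clusters in ICI 1 to ICI 4, against isotype in the same clusters. Every mean log2 ratio stayed negative, from -0.69 for Fos to -1.59 for Klf4. Below isotype were 4 of 4 ICI libraries for 8 genes, 3 of 4 for Fos and 2 of 4 for Atf3. The share of all genes was not counted for this mix.

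**Figure D3:**
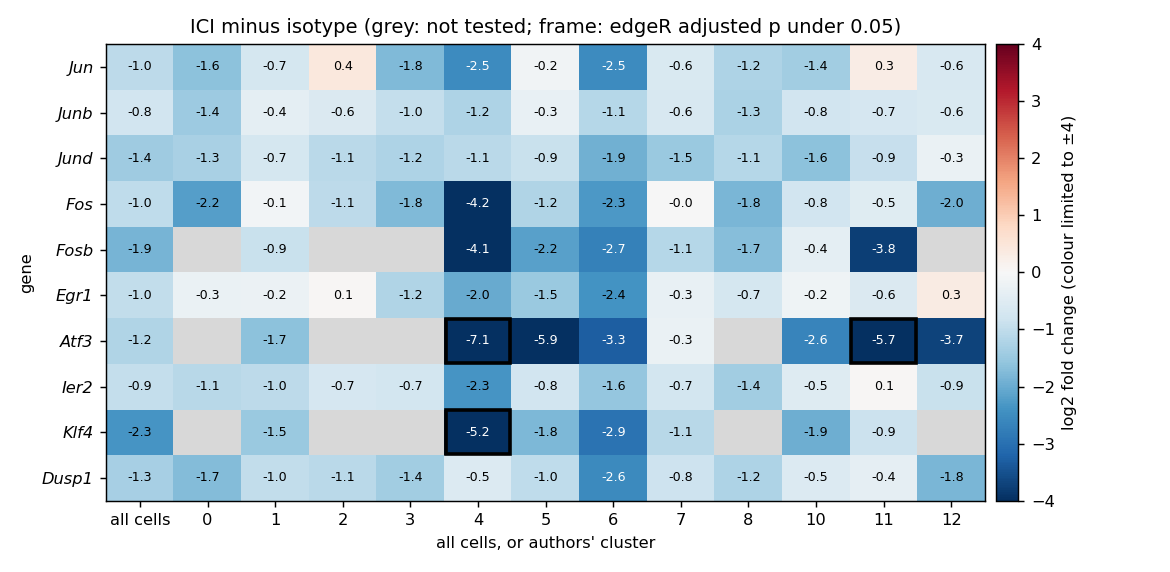
Fitted log2 fold change of ICI minus isotype for each gene over all cells and in each of the 12 clusters fitted, with blue for lower in ICI, grey for genes under the count filter and a black frame for an edgeR adjusted p under 0.05. Nearly all fields are blue, and 3 are framed, Atf3 and Klf4 in cluster 4 and Atf3 in cluster 11.

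Within clusters ICI 4 stood closer to isotype than the other ICI libraries did. In the 9 clusters where all 5 libraries had at least 20 cells, ICI 1 to ICI 3 were all below isotype in 77 of 90 gene and cluster pairs (24.8% of all pairs tested). ICI 4 was above each of ICI 1 to ICI 3 in 68 of the 90 (22.6% of all pairs tested). It was below isotype in 64, a count for which the share over all pairs was not taken. Unlike the shares over all pairs, the 90 include pairs under the count filter, with few UMIs. These are Fosb, Atf3 and Klf4 in clusters 0, 2 and 3, and Atf3 and Klf4 in cluster 8. The median log2 ratio to isotype, with 1 CPM added, was -2.22, -1.71 and -1.95 in ICI 1 to ICI 3 and -0.46 in ICI 4. ICI 4 and isotype were also the libraries in which every cell held a Ptprc UMI, and the part of this in the split was not tested. The labels name no batch, but the titles of ICI 1 to ICI 3 share a stem that those of ICI 4 and isotype lack, and the title of ICI 4 holds nov21, which reads as a month and year and is not explained.

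The split was seen in Jund, Junb and Ier2 in nearly all clusters. Jund in ICI 4 exceeded ICI 1 to ICI 3 in 9 of 9 clusters, and its median log2 ratio to isotype was -0.34 in ICI 4 and between -1.94 and -1.57 in the others. Junb in ICI 4 exceeded them in 8 of 9 clusters, with a median log2 ratio to isotype of -0.07, against -1.94 to -1.04 in ICI 1 to ICI 3. Junb in natural killer-like cluster 8 had 349, 618 and 516 CPM in ICI 1 to ICI 3, 2088 in ICI 4 and 2050 in isotype. In cluster 0 the Junb levels were 199, 460, 409 and 1290 CPM against 1554. In both clusters ICI 4 lay near isotype and apart from the other ICI libraries. Ier2 in ICI 4 also exceeded the other ICI libraries in 8 of 9 clusters, with a median log2 ratio to isotype of -0.10, against -2.03 to -1.55 in ICI 1 to ICI 3. Dusp1 did so in 8 of 9, Klf4 in 7, Jun, Fos and Atf3 in 6, and Fosb and Egr1 in 5.

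**Figure D4:**
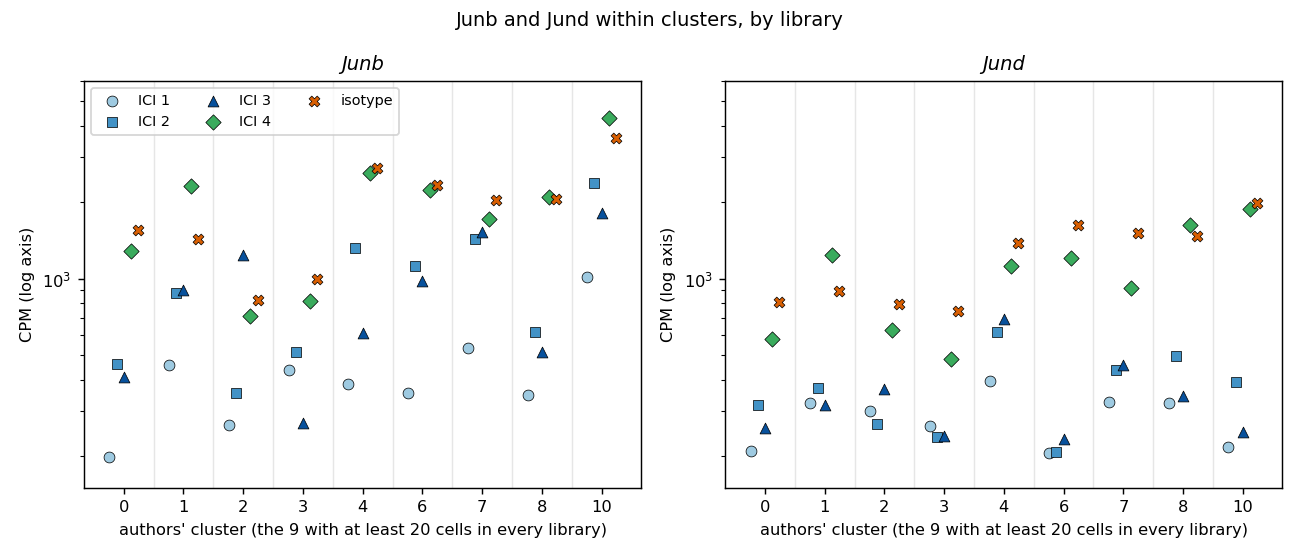
Junb (left) and Jund (right) in the 9 clusters with at least 20 cells in every library, in CPM on a log axis, with 1 point per library. The green diamonds of ICI 4 lie near the orange crosses of isotype, and for Jund above all 3 other ICI points in each of the 9 clusters.

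Leaving ICI 4 out changed the calls in several clusters. edgeR then called 35 of 86 gene and cluster pairs tested in 10 clusters, all lower in ICI (3.75% of all pairs). In cluster 6 all 10 genes were called (12.5% of genes there), in cluster 10 9 of 10 (7.36%) and in cluster 8 all 7 tested (4.17%). Cluster 4 had 5 calls (1.28%), cluster 3 had Fos and Jund (1.57%), cluster 7 Jund (4.16%) and cluster 5 Atf3 (1.02%). The 3 libraries that remain include ICI 2 and ICI 3, which share barcodes. Whether these are separate pools of cells is not given in the labels, and if not, the ICI libraries would number fewer than counted in each SD, SE and p here.

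The calls in regulatory T-like cluster 4 rested on 1 cell. Atf3 there had 3.11, 0, 0 and 5.35 CPM in ICI 1 to ICI 4 and 576 in isotype, and its fitted log2 fold change was -7.10 (SE 0.57; edgeR adjusted p = 1.80e-04; 0.144% of genes called). Klf4 had 3.11, 0, 7.62 and 11.5 CPM against 295 (log2 fold change -5.19, SE 0.67; edgeR adjusted p = 0.00655). Of the 28 isotype cells in this cluster, 1 cell held 98.8% of the Atf3 UMIs, 100% of the Klf4 UMIs and 93.7% of the Fos UMIs. That cell had 27946 UMIs, against a median of 3259.5 in the cluster's isotype cells, and 685 of the cluster's 1258 isotype UMIs of the 10 genes. It also held 35 UMIs of Krt8 and 46 of Krt18, keratins of epithelium, 49 of the thyroid hormone precursor Tg, 57 of general T cell genes and 0 of Foxp3. With the cell richest in each gene left out of every library, 0 of the 10 genes were called in any cluster, where edgeR had 38 calls over all genes.

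Cluster 11, led by Gm15340 and Chrna9, gave the third call. Atf3 there had 0 and 2.27 CPM in ICI 1 and ICI 4, the 2 ICI libraries with enough cells, and 136 in isotype (log2 fold change -5.73, SE 1.22; edgeR adjusted p = 0.00561; 0.0934% of genes called). Of the 46 isotype UMIs, 97.8% lay in 1 of 168 cells. DESeq2 did not call it, with an adjusted p of 1.

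Gamma-delta T-like cluster 6 had a median log2 fold change of -2.45, close to the -2.44 of cluster 4, without a call. Jun there had 80.2, 99.7, 187 and 429 CPM in ICI 1 to ICI 4 and 1037 in isotype, Fos 34.4, 83.7, 99.3 and 787 against 1172, and Egr1 51.5, 15.9, 55.0 and 839 against 1207. In each case ICI 4 was far above the other ICI libraries and under isotype. The log2 fold changes ran from -1.14 for Junb to -3.30 for Atf3, with edgeR adjusted p-values between 0.682 and 0.718.

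Fibroblast RNA in this cluster moved with the same libraries. All 7 fibroblast genes, among them Dcn and Col1a1, were at 0 in ICI 1 to ICI 3, and their sum was 3697 CPM in ICI 4 and 6218 in isotype. Endothelial genes summed to 51.5, 33.2, 26.5 and 73.4 CPM in the ICI libraries and 991 in isotype. The 10 gamma-delta or type 17 T cell genes summed to 6031, 5690, 5305 and 2027 CPM in ICI 1 to ICI 4 and 1922 in isotype. Thymocyte genes summed to 137, 77.1, 78.6 and 810 CPM and 1015 CPM. So the T cell RNA of this cluster also differed between these libraries, and its part in the levels of the 10 genes was not tested. Cells with at least 10 stromal UMIs numbered 0, 0 and 0 in ICI 1 to ICI 3, 6 of 62 in ICI 4 and 19 of 67 in isotype, where they held 20.4% and 44.4% of all UMIs of the cluster. These cells held 95.6% of Egr1 UMIs in ICI 4 and 98.4% in isotype, but 37.0% and 43.8% of Junb UMIs and 29.8% and 55.8% of Jund UMIs. For Atf3 the shares were 78.5% and 96.2%, and for Klf4 88.4% and 94.7%. Jun (85.0% and 82.0%), Fos (81.0% and 74.8%) and Fosb (91.4% and 92.9%) lay mostly in these cells too. The Junb share in isotype was near these cells' share of all UMIs.

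Without the stromal cells, Egr1 in cluster 6 had 46.1 CPM in ICI 4 and 34.1 in isotype, inside the range of ICI 1 to ICI 3. Its log2 fold change turned from -2.40 to 0.13. Jund kept 1060 CPM in ICI 4 and 1289 in isotype, still far above the 206, 207 and 234 CPM of ICI 1 to ICI 3. Junb kept 1772 and 2369 CPM. Jun had 80.7 CPM in ICI 4, now among the other ICI libraries, and 336 in isotype. Of the 9 genes still tested, 8 had a negative fold change, and the median was -1.67.

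**Figure D5:**
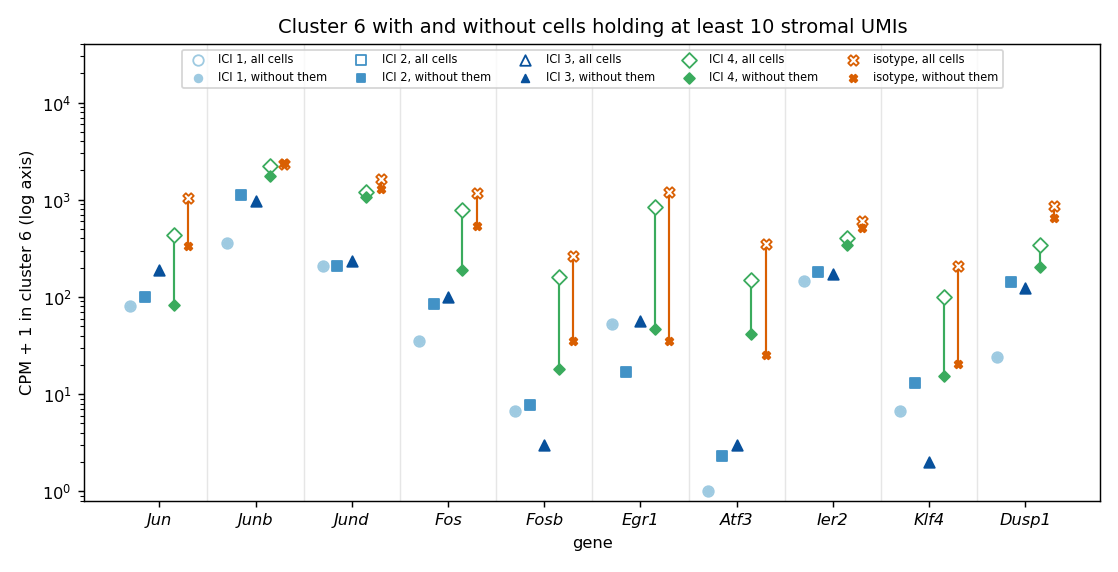
Level of each gene in cluster 6, in CPM plus 1 on a log axis, with all cells (open) and without cells holding at least 10 stromal UMIs (filled), joined by a line for each library. Egr1 of isotype moves from 1207 to 34.1 CPM, while Junb and Jund of ICI 4 and isotype stay above ICI 1 to ICI 3.

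In macrophage-like cluster 7 the genes had smaller differences, with a median log2 fold change of -0.68 and 0 calls by edgeR (0% of genes). An unadjusted edgeR p below 0.05 was found for 2 of the 10, and for 769 of the 8997 genes tested there. Fos (-0.01), Atf3 (-0.27) and Egr1 (-0.31) were nearest to no difference. Jund was the farthest, with 328, 435, 456 and 915 CPM in the ICI libraries and 1519 in isotype, a log2 fold change of -1.50 (SE 0.54) and an edgeR adjusted p of 0.553. Dusp1 had 447, 666, 879 and 720 CPM against 1219, and Klf4 had 62.2, 57.5, 105 and 115 against 186. For these 3 genes no ICI library reached the isotype value.

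Cells of this cluster were also compared at 1000 UMIs each, since their median depth (cells with stromal genes aside) was 3271, 3389 and 3424 UMIs in ICI 1 to ICI 3, 8429 in ICI 4 and 9842 in isotype. At that depth, cells with at least 5 of the 10 genes made up 7.22%, 22.3%, 20.8% and 13.3% of the cluster in ICI and 51.2% in isotype. T cell RNA moved with this: cells with both T cell and myeloid genes were 17 of 104, 7 of 181, 5 of 162 and 21 of 45 in the ICI libraries and 91 of 129 in isotype, and T cell genes summed to 1616, 165, 124 and 1972 CPM and 3780 CPM. Without the cells holding both, the edgeR fit of this cluster gave 9 of the 10 genes a negative fold change, a median of -0.98 and 0 calls. Shares of cells with at least 5 of the 10 genes were not recounted without them.

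Across the 65 library and cluster sums of at least 20 cells, the genes most like each of the 10 were largely other immediate early genes. Likeness was the Pearson correlation of log2 CPM (10 CPM added) among 3495 genes, given as a description over sums that share libraries and depth. Other genes needed a mean of at least 50 CPM over these sums, while the 10 were kept at any level. Matches among the 10 were thus favoured over other genes of low level. Fos was most like Klf4 (r = 0.84), Zfp36 (0.83) and Dusp1 (0.82), and Atf3 most like Klf4 (0.84), Zfp36 (0.83) and the metallothionein Mt1 (0.78). Junb was most like Gadd45b (0.83), Ier5 (0.82) and Nfkbia (0.79), none of them among the 10, and Jund most like Nr4a3, Mapkapk2 and Ifrd1 (0.81 each). Jun was most like Fos (0.74), Zfand5 (0.68) and Klf6 (0.67), and Egr1 most like Zfp36 (0.73), Fos (0.69) and Nr4a1 (0.68). Ier2 was most like Dusp1 (0.77), Ifrd1 and Ppp1r15a (0.75 each), and Fosb most like Klf4 (0.81), Fos (0.79) and Ifrd1 (0.78). Dusp1 was most like Fos (0.82), Ppp1r15a (0.79) and Ifrd1 (0.78), and Klf4 most like Atf3, Fos and Fosb. Among the 10 themselves the correlations ran from 0.44 for Jun with Junb to 0.84 for Atf3 with Klf4.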

How the data were processed

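The deposited counts are whole numbers of UMIs, 18767 genes by 10275 cells from 5 libraries, and the deposited cell table gives each cell's library, cluster and percent of mitochondrial UMIs. The submitters' processing notes name Cell Ranger, Seurat and build mm10. The 17 clusters are those of the integrated data, per the file headers, and cell cycle score values deposited beside them were not used. The filters that gave the deposited cells are not given in the sources used here.

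For each library, counts were added up over all cells and within each cluster with at least 20 cells in isotype and in 2 ICI libraries. edgeR 4.0.16 (R 4.3.3) fitted quasi-likelihood models over all genes with TMM scaling, filterByExpr (minimum count of 10) and Benjamini-Hochberg adjustment at 0.05. The single isotype library was taken to have the spread of the ICI libraries. DESeq2 1.42.0 was an alternative. CPM used all UMIs of a sum. Doublets were not called. Cells with T and myeloid genes were removed in an alternative. In data simulated for all cells (12659 genes), edgeR recovered 25% of 4-fold and 89% of 16-fold changes, with 4 false calls among 118.

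The 10 genes, the lists of related genes and the marker lists were chosen with earlier results of these data known. Named beside the 10 were up to 5 genes of each list with the highest mean CPM, any that passed the threshold, and the 3 genes most like each of the 10. From these, Elk4, Map2k1, Hsp90ab1, Hspa5 and Dnaja1 are covered by counts only, and some genes that the rule covers are not reported by name here. Genes that lead clusters, carry stroma or T cell RNA or show the sort were named after their values were seen.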

Additional observations from a re-analysis of the deposited data

Results flagged for a closer look

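In 17 of 60 groups of 4 ICI libraries examined (the 10 genes over all cells and in clusters 4, 6, 7, 8 and 10), 1 library lay far from the other 3 by Dixon's criterion. Chance meets this criterion in about 1 of 20 groups if the 4 values are independent and normally distributed. CPM values are skewed and some are 0, and ICI 2 and ICI 3 share barcodes, so that rate is no yardstick for the 17. The libraries are also shared between the 60 groups, so the groups are not independent. In 1 case the library was ICI 1 and low, for Junb over all cells, with 358 CPM. In the other 16 it was ICI 4 and high. In gamma-delta T-like cluster 6, ICI 4 had 1202 CPM of Jund, 787 of Fos, 161 of Fosb, 839 of Egr1, 149 of Atf3, 404 of Ier2 and 98.6 of Klf4. There 6 cells with stromal UMIs held 78.5% to 95.6% of the UMIs of Fos, Fosb, Egr1, Atf3 and Klf4. They held 29.8% of those of Jund and 32.4% of those of Ier2. In natural killer-like cluster 8, ICI 4 had 2088 CPM of Junb, 1629 of Jund, 152 of Fos, 24.0 of Fosb, 19.2 of Atf3, 630 of Ier2 and 24.95 of Klf4. It also had 305 CPM of Jun in regulatory T-like cluster 4 and 1874 CPM of Jund in innate lymphoid-like cluster 10.

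Ier2 was below isotype in every ICI library in 8 clusters (0, 3, 4, 5, 6, 7, 8 and 12) and slightly above it in both ICI libraries of cluster 11. In cluster 11 it had 179 CPM in ICI 1, from 4 UMIs in 21 cells, and 211 in ICI 4, against 178 in isotype. The fitted log2 fold change there was 0.06 (SE 0.81), so the levels in cluster 11 do not differ beyond their spread. The difference between these clusters was not tested.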

How the results depend on the processing

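No paired analysis was possible because the isotype group has 1 library, so the groups share fewer than 2 replicate numbers. Over all cells the 10 genes kept a negative fold change in each of the 16 other fits, and 7 to 10 of them were below isotype in every ICI library. Called were 1 of the 10 and 31 of all genes with DESeq2, 0 to 2 and 0 to 210 with 1 ICI library left out, and 0 and 1 with the highest cell of each gene left out. Over the clusters, 58 to 85 pairs were below isotype in every ICI library (74 as reported). The shares of all genes below isotype were not counted under these other settings. The calls among the 10 genes, 3 as reported, were 9 without a count filter, 0 without the highest cell of each gene, 1 without stromal cells and 2 to 35 with 1 ICI library left out. Calls over all genes, 62 as reported, were 202 without a filter, 27 to 3393 with 1 ICI library left out (3393 without ICI 4), 21 with ICI 2 and ICI 3 summed, 38 without the highest cell and 32 without cells of T and myeloid genes. Some of these settings left 9 to 11 of the 12 clusters to fit. Log2 fold changes turned positive without stromal cells for Jun (0.21) and Egr1 (0.65) in cluster 4 and Egr1 (0.13) in cluster 6, without the highest cell for Egr1 in cluster 4 (0.29), and for Dusp1 in cluster 4 with ICI 4 alone against isotype (0.15). The removal of stromal cells, shared barcodes and cells without a Ptprc UMI, and the TMM scaling of CPM, were added after the data were seen. Without scaling factors the median of all genes shifted from 0.02 to 0.12 over all cells, and the median of the 10 genes was -1.02. Thinning to 500 or 2000 UMIs, or not at all, kept the direction of each share, and a minimum of 50 cells moved no mean level in clusters 6, 7 and 10 by more than 1 SD. Cell numbers limit the clusters: 1 deep cell among 28, which also held epithelial keratins and Tg, made the calls of cluster 4. A simulated 4-fold change over all cells was missed in most genes.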
